A study of Mus musculus with 9 samples.

Results

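Which transcripts differed in mouse marrow cells carrying either of 2 leukaemia fusions, ETV6-NCOA2 or KAT6A-NCOA2, from cells carrying the vector alone was asked here in 1 pooled comparison. The average of the fusion group means was set against the mean of the empty vector group. It used all 9 libraries of the series, 6 with a fusion (3 with each) and 3 with empty vector, and the 13750 of 17266 genes with at least 10 normalized counts in at least 3 libraries. At the edge of that filter the third-highest value was 10.19 for 1700029I15Rik, which was tested, and 9.77 for Xlr3b, which was not. Every group started from marrow of untreated female C57B/6 mice aged 6 weeks, depleted of lineage-positive cells on magnetic beads. Retroviral MigR1 constructs carried IRES-GFP alone (empty vector), ETV6-NCOA2 with IRES-GFP or KAT6A-NCOA2 with IRES-GFP. All groups were cultured for 5 days in the presence of SCF, IL-3 and IL-6, and GFP-positive cells were sorted for sequencing of polyadenylated RNA. The fusion therefore came from a virus in a short liquid culture, in cells that kept their own Etv6, Kat6a and Ncoa2 genes. Nothing in the labels tells whether the libraries of a group are from different animals, infections or cultures, and the p-values measure only the spread between these libraries.

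As background, ETV6 is a repressor of the ETS family that blood stem cells need in adult marrow. KAT6A is a histone acetyltransferase that maintains stem cells, and NCOA2 is a coactivator that nuclear receptors recruit and that binds histone acetyltransferases. Both fusions keep the end of NCOA2 that recruits acetyltransferases, and the pooled comparison asks which transcripts they moved in common. SCF, IL-3 and IL-6 drive marrow progenitors toward granulocytes, monocytes and macrophages, mast cells and basophils.

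The recovered reads came to between 17.1 and 20.4 M per library. Along principal component 1 (51.2% of the variance over the genes tested) the empty vector libraries lay at -51.95, -14.38 and -34.17 (replicates 1, 2 and 3), the ETV6-NCOA2 libraries at -13.37, 2.28 and 7.7, and the KAT6A-NCOA2 libraries at 20.67, 40.24 and 42.98. Empty vector replicate 2 thus lay nearest to the fusion libraries, next to ETV6-NCOA2 replicate 1, and results that turn on it are given with and without it. Kat6a and Ncoa2 did not pass the test (adjusted p = 0.96 and 0.58). Etv6 stood at normalized counts of 2398, 1855 and 2033 under empty vector, 2152, 2027 and 2009 under ETV6-NCOA2 and 1594, 1319 and 1384 under KAT6A-NCOA2. The groups overlapped, and its pooled log2 change was -0.28 ± 0.087 SE, adjusted p = 0.046, with own changes of -0.015 for ETV6-NCOA2 and -0.55 for KAT6A-NCOA2. The Etv6 call was lost without ETV6-NCOA2 replicate 2 (0.083), ETV6-NCOA2 replicate 3 (0.086), empty vector replicate 1 (0.23), empty vector replicate 3 (0.1), KAT6A-NCOA2 replicate 2 (0.099) or KAT6A-NCOA2 replicate 3 (0.093), where the brackets hold the adjusted p. Whether reads of a fusion transcript count toward these mouse genes is not known, so these levels do not check the labels. Of 9 listed mitochondrial transcripts, a sign of RNA quality, 6 were tested. By limma 0 were called and 0 reached an unadjusted p of 0.05, and 0 were called by DESeq2 or edgeR. Their sum ranged from 576000 to 666400 normalized counts with empty vector and from 597200 to 673100 with a fusion.

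Against empty vector, 1199 genes were higher with the fusions (8.72% of those tested) and 1523 were lower (11.1%), by limma at an adjusted p below 0.05. Falls were the larger changes: 397 of the lower genes and 105 of the higher genes had moved at least 2-fold, on the log2(value + 1) scale used throughout. The median log2 change over all genes tested was 0.014. All 6 fusion values lay above all 3 empty vector values in 714 genes (5.19%), of which 490 were called, and below them in 1355 (9.85%), of which 1081 were called. The other called genes, 709 higher and 442 lower, had an overlap between the groups. In 588 and 315 of these no overlap was left when empty vector replicate 2 was set aside, and in 283 and 165 when ETV6-NCOA2 replicate 1 was.

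A gene can pass a pooled test because 1 fusion alone moved it. The difference between the fusions, ETV6-NCOA2 minus KAT6A-NCOA2, does not use the empty vector mean. Its 95% limma interval was used to see how alike the fusions were. That interval and its test rest on a spread shared by all 3 groups, so the empty vector libraries enter them through the spread. In 453 higher genes (3.29% of those tested) and 795 lower genes (5.78%) the libraries did not overlap and that interval lay within a log2 of -1 to 1, so that the fusions left the gene within 2-fold of each other. By this rule 1556 higher and 1245 lower genes were found without empty vector replicate 2, and 162 and 416 without empty vector replicate 1. The rule asks for no pass of either fusion's own test against empty vector. Among small changes it still admits genes moved mostly by 1 fusion. The smaller of the fusions' own changes was under 0.5 times the larger in 43 of the 453 and 112 of the 795. Those that moved at least 2-fold were 19 higher and 66 lower genes, and in them the smallest own change with either fusion was 0.828 and 0.729 on the log2 scale. The fusions were called different from each other in 425 of the 13750 genes tested (3.09%) and in 275 of the 2722 called in the pooled comparison. Both comparisons with empty vector use the same 3 empty vector libraries, so the fusions' own changes are given side by side and no overlap between them is counted.

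**Figure D1:**
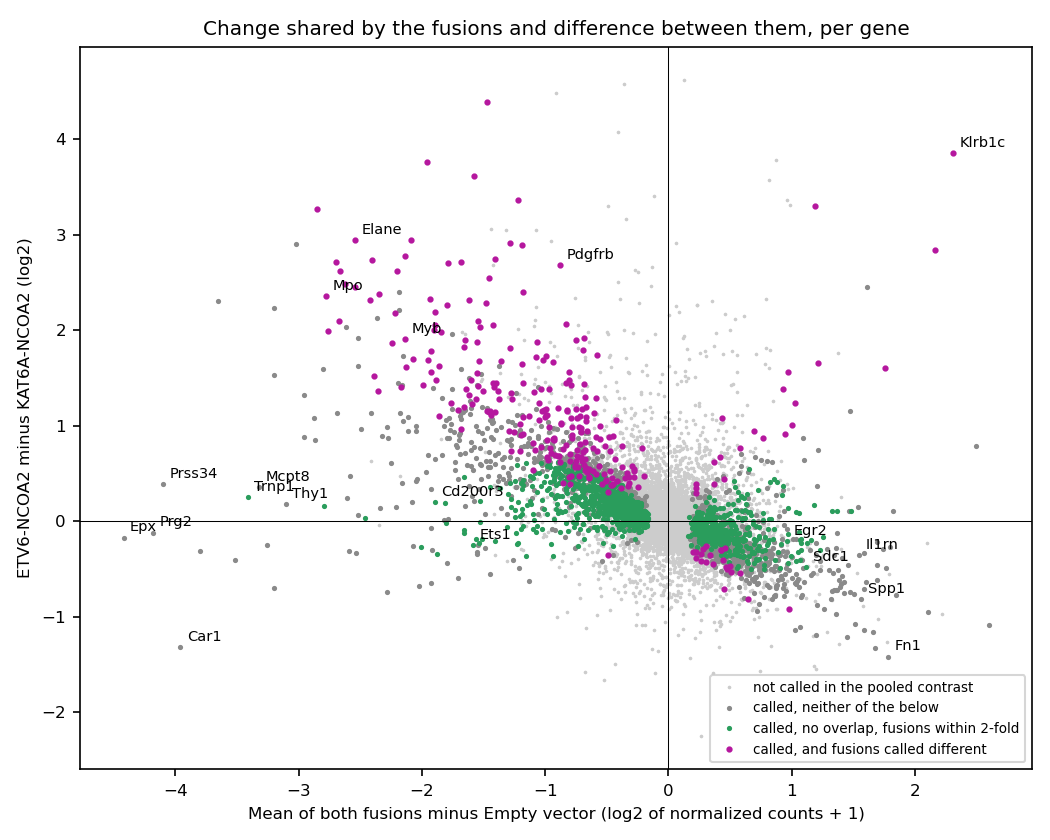
Each point is a gene: the x axis is the mean of both fusions minus empty vector and the y axis is ETV6-NCOA2 minus KAT6A-NCOA2, both as log2 of normalized counts + 1. Genes changed without overlap and within 2-fold (453 higher, 795 lower) are green and lie near the zero line of the y axis. Of these, 8 higher and 40 lower genes were also called different between the fusions and are magenta instead. Magenta genes (275, called different between the fusions) lie mostly at the upper left, where KAT6A-NCOA2 is lower still.

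The number of calls depended on single libraries, the higher genes more than the lower. Without empty vector replicate 1 the test called 225 higher and 672 lower genes, and without empty vector replicate 3 it called 376 and 924. Without KAT6A-NCOA2 replicate 2 the numbers were 575 and 1044, without KAT6A-NCOA2 replicate 3 they were 627 and 1119, without ETV6-NCOA2 replicate 2 they were 786 and 1155, and without ETV6-NCOA2 replicate 3 they were 747 and 1146. Without empty vector replicate 2 they were 1859 and 1826. Fitting the 6 fusion libraries as 1 group, which puts the difference between the fusions into the spread, gave 555 higher and 929 lower. In each of these fits every gene called both there and with all libraries kept its direction.

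**Figure D2:**
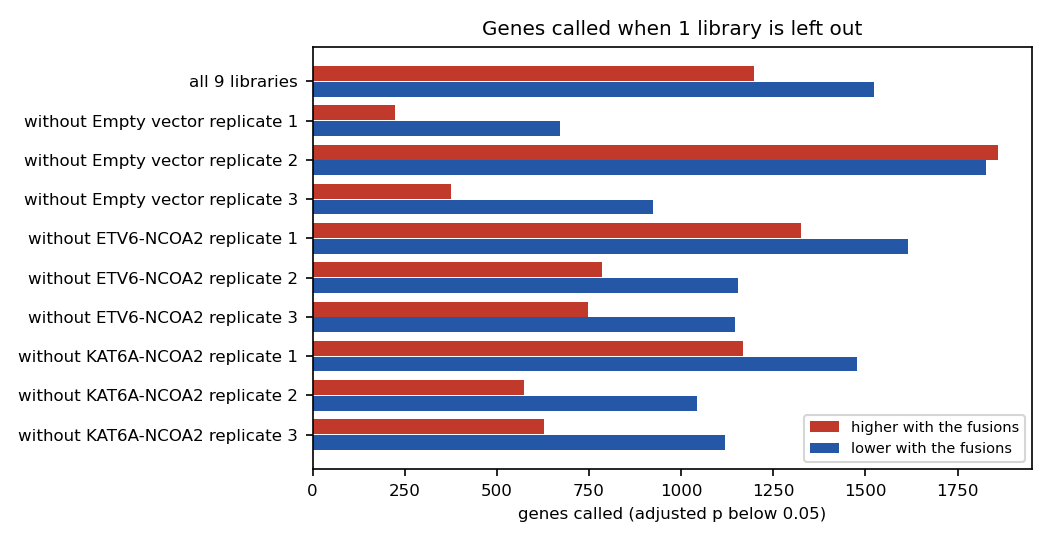
Bars give the number of genes called higher (red) and lower (blue) with the fusions when all 9 libraries are fitted and when 1 is left out. Higher calls range from 225 without empty vector replicate 1 to 1859 without empty vector replicate 2, and lower calls from 672 to 1826 in the same fits.

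Among the genes lowered to within 2-fold that had a level above the median gene, the 10 largest falls were Cd200r3, Padi2, Tfrc, Rrm2, Ccr2, Fam117a, Dkc1, Cyp51, Hgf and Mcm7. The promoters of 4 of them are printed here because they head the falls and have a single start site in RefSeq (GRCm38.p6). Each run is the 250 bases before the RefSeq start, all on the plus strand, at chr16:44943428-44943677, chr4:140906110-140906359, chr12:24708004-24708253 and chr9:124101933-124102182. The gene coordinates given below are from GENCODE, whose starts can differ. By these the Padi2, Rrm2 and Ccr2 runs reach into the gene, the Ccr2 run for most of its length. Capitals mark GATAA (the GATA factor motif), TGACTCA (AP-1) or CCAAT (NF-Y) read on either strand, so that TTATC is GATAA on the other strand.
Cd200r3: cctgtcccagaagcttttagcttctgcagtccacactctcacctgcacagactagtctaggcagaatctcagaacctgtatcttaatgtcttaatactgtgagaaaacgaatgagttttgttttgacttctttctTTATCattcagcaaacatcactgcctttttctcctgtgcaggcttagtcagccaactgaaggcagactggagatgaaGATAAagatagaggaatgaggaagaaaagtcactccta
Padi2: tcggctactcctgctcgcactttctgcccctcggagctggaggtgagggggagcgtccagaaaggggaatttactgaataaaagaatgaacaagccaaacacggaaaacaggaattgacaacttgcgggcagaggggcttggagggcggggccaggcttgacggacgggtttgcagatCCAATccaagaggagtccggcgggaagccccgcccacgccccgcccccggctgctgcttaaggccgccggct
Rrm2: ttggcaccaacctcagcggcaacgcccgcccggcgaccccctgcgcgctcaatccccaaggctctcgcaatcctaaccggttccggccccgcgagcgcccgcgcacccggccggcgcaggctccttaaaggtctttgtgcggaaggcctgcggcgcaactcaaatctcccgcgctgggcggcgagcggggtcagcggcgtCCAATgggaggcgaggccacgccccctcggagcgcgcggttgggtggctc
Ccr2: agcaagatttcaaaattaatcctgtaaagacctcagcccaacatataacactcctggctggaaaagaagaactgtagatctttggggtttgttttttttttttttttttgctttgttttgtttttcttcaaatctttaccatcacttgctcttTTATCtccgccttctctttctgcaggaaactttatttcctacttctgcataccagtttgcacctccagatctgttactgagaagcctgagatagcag

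The Cd200r3 and Ccr2 runs hold GATAA and the Padi2 and Rrm2 runs hold CCAAT. A promoter in the table could be matched to 10059 of the genes tested. CCAAT was found in 43.7% of 622 promoters of genes lowered to within 2-fold, in 36.3% of the 10059 and in 33.1% of 338 promoters of genes raised to within 2-fold. GATAA was found in 16.1%, 14.9% and 15.4% of the same sets, and TGACTCA in 1.93%, 3.12% and 4.44%. GGAA, the core of ETS motifs, which is not marked in capitals, was found in 91.5%, 93.2% and 89.3%. Over all 27025 promoters in the table the shares were 34.5% for CCAAT, 23.0% for GATAA, 4.43% for TGACTCA and 93.4% for GGAA. These shares are a description and a match is not a binding site.

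Cd200r3, an activating receptor of basophils and mast cells (chromosome 16, 44943678 to 44981380, GRCm38), stood at normalized counts of 3343, 1728 and 2019 under empty vector, 885, 657 and 477 under ETV6-NCOA2 and 1014, 472 and 385 under KAT6A-NCOA2 (replicates 1, 2 and 3). Every fusion library lay below every empty vector library, and the pooled log2 change was -1.89 ± 0.31 SE, adjusted p = 0.0034. The own changes were -1.80 with ETV6-NCOA2 and -1.99 with KAT6A-NCOA2, and the interval of their difference was -0.59 to 0.99. In bulk RNA fewer cells of a type and less RNA per cell cannot be told apart, here and in every result that follows. Ccr2, the receptor by which monocytes answer CCL2 (chromosome 9, 124101950 to 124113557), stood at normalized counts of 3742, 2206 and 2671 under empty vector, 1143, 1455 and 1206 under ETV6-NCOA2 and 1216, 1312 and 1083 under KAT6A-NCOA2. The fusion libraries of both groups covered nearly the same range, all below the lowest empty vector value (pooled log2 change -1.19 ± 0.15 SE, adjusted p = 0.0011). The difference between the fusions was 0.072, with an interval of -0.30 to 0.44.

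Rrm2, the small subunit of the reductase that makes deoxynucleotides (chromosome 12, 24708241 to 24714146), stood at normalized counts of 1294, 756 and 826 under empty vector, 533, 471 and 402 under ETV6-NCOA2 and 384, 292 and 394 under KAT6A-NCOA2. All fusion values were below 755.79, the lowest with empty vector, and the log2 change was -1.20 ± 0.17 SE, adjusted p = 0.0019. Mcm7, a subunit of the replicative helicase (chromosome 5, 138164583 to 138172422), stood at normalized counts of 1362, 941 and 1169 under empty vector, 636, 635 and 657 under ETV6-NCOA2 and 493, 407 and 436 under KAT6A-NCOA2, with a log2 change of -1.10 ± 0.11 SE, adjusted p = 0.00046. Mcm7 fell with both fusions and fell further with KAT6A-NCOA2: the difference of 0.53 passed its own test (adjusted p = 0.044) while its interval of 0.26 to 0.80 stayed within 2-fold.

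Tfrc, the transferrin receptor that brings in iron (chromosome 16, 32608920 to 32632794), stood at normalized counts of 3511, 1414 and 2210.1 under empty vector, 1292, 734 and 907 under ETV6-NCOA2 and 1274, 648 and 950.2 under KAT6A-NCOA2. The log2 change was -1.25 ± 0.29 SE, adjusted p = 0.014, and the call was lost without empty vector replicate 1 (0.08) or empty vector replicate 3 (0.056). By limma against empty vector alone, the adjusted p was 0.074 for ETV6-NCOA2 and 0.019 for KAT6A-NCOA2. The lowest empty vector value, in replicate 2, lay close to the highest fusion values, both of which came from a replicate 1. Cyp51, the lanosterol demethylase of cholesterol synthesis (chromosome 5, 4081145 to 4104746), stood at normalized counts of 1974, 928 and 1515 under empty vector, 720, 746 and 569 under ETV6-NCOA2 and 762, 508 and 548 under KAT6A-NCOA2, with a log2 change of -1.15 ± 0.21 SE, adjusted p = 0.0055. Dkc1, the pseudouridine synthase dyskerin of ribosome and telomerase assembly (chromosome X, 75095854 to 75109777), stood at normalized counts of 921, 646 and 728 under empty vector, 427, 411 and 422 under ETV6-NCOA2 and 333, 272 and 229 under KAT6A-NCOA2, with a log2 change of -1.15 ± 0.13 SE, adjusted p = 0.00078. The groups did not overlap in either gene.

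The other falls of the 10 were similar in size. Padi2, which turns arginine into citrulline (chromosome 4, 140906344 to 140952586), stood at normalized counts of 5846, 3693 and 4239 under empty vector, 2559, 2032 and 1581 under ETV6-NCOA2 and 2252, 1632 and 1369.8 under KAT6A-NCOA2 (log2 change -1.28 ± 0.19 SE, adjusted p = 0.0024). Hgf, hepatocyte growth factor (chromosome 5, 16553495 to 16620152), stood at normalized counts of 4266, 2286 and 2524 under empty vector, 1655, 1194 and 1161 under ETV6-NCOA2 and 1733, 1262 and 1241 under KAT6A-NCOA2 (log2 change -1.10 ± 0.20 SE, adjusted p = 0.0048). Fam117a (chromosome 11, 95337018 to 95381872) stood at normalized counts of 858, 539 and 739.7 under empty vector, 443, 304 and 323 under ETV6-NCOA2 and 295, 264 and 255 under KAT6A-NCOA2 (log2 change -1.18 ± 0.15 SE, adjusted p = 0.0014). In these genes too every fusion value lay below every empty vector value, and apart from Tfrc the 10 calls held whichever library was left out.

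The 10 largest rises by the same rule were smaller than the falls: Sdc1, Egr2, F10, Mt2, Sphk1, Mcf2l, Fzd7, Rhoc, Itga5 and Pros1, with log2 changes from 0.73 to 1.12. All of these calls held whichever library was left out. By limma against empty vector alone, ETV6-NCOA2 missed an adjusted p of 0.05 for Sdc1 (0.062), F10 (0.057), Fzd7 (0.065) and Itga5 (0.097). It stood at 0.05 for Mcf2l, while KAT6A-NCOA2 passed for all 10. The 10 genes include surface proteins and receptors, a small GTPase and an exchange factor, and coagulation proteins that macrophages can make. Sdc1, the heparan sulfate proteoglycan syndecan 1 (chromosome 12, 8771323 to 8793715), stood at normalized counts of 448, 972 and 605 under empty vector, 1216, 1190.3 and 1136 under ETV6-NCOA2 and 1387, 1828 and 1746 under KAT6A-NCOA2. The highest empty vector value, in replicate 2, lay under the lowest fusion value, and the log2 change was 1.12 ± 0.19 SE, adjusted p = 0.004. Egr2, a zinc finger factor of the immediate early class (chromosome 10, 67535475 to 67542188), stood at normalized counts of 684, 1209 and 912 under empty vector, 1802, 1589 and 1582 under ETV6-NCOA2 and 1601, 1968 and 2212 under KAT6A-NCOA2 (log2 change 0.96 ± 0.16 SE, adjusted p = 0.0033). The fusions differed by -0.21 with an interval of -0.61 to 0.19.

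F10, coagulation factor X (chromosome 8, 13037308 to 13056676), stood at normalized counts of 2188, 3536 and 3045 under empty vector, 3954, 4944 and 5515 under ETV6-NCOA2 and 5099, 6133 and 6695 under KAT6A-NCOA2, with a log2 change of 0.89 ± 0.15 SE, adjusted p = 0.0041. Pros1, the anticoagulant protein S that also bridges dying cells to phagocytes (chromosome 16, 62854307 to 62929346), stood at normalized counts of 1467, 2121 and 1509.5 under empty vector, 3036, 3119 and 3169 under ETV6-NCOA2 and 2323, 2559.8 and 2530.3 under KAT6A-NCOA2, with a log2 change of 0.73 ± 0.10 SE, adjusted p = 0.0021. Pros1 was the gene of the 10 in which ETV6-NCOA2 (own change 0.89) stood furthest above KAT6A-NCOA2 (0.56). Mt2, a metallothionein (chromosome 8, 94172664 to 94173568), stood at normalized counts of 512, 784 and 727 under empty vector, 1003, 1494 and 1141 under ETV6-NCOA2 and 1006, 1226 and 1305 under KAT6A-NCOA2, with a log2 change of 0.83 ± 0.16 SE, adjusted p = 0.0057. Here the fusions differed least of the 10, by 0.029 with an interval of -0.37 to 0.43.

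Itga5, the alpha chain of the fibronectin receptor (chromosome 15, 103344286 to 103366763), stood at normalized counts of 2155, 3831 and 2799.7 under empty vector, 3917, 4348 and 4523 under ETV6-NCOA2 and 4592, 5408 and 5813 under KAT6A-NCOA2, with a log2 change of 0.73 ± 0.15 SE, adjusted p = 0.0091. Its highest empty vector value lay just under its lowest fusion value. Rhoc, a small GTPase (chromosome 3, 104788375 to 104794459), changed by 0.74 ± 0.11 SE, adjusted p = 0.0024, and Mcf2l, a guanine nucleotide exchange factor (chromosome 8, 12873806 to 13020905), by 0.78 ± 0.11 SE, adjusted p = 0.002. Sphk1, the kinase that makes sphingosine 1-phosphate (chromosome 11, 116530925 to 116536674), changed by 0.80 ± 0.12 SE, adjusted p = 0.0022. Fzd7, a Wnt receptor (chromosome 1, 59482424 to 59486955), changed by 0.76 ± 0.13 SE, adjusted p = 0.0045. Own changes with ETV6-NCOA2 and KAT6A-NCOA2 were 0.61 and 0.87 for Rhoc, 0.55 and 1.01 for Mcf2l, 0.68 and 0.92 for Sphk1, and 0.60 and 0.91 for Fzd7.

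**Figure D3:**
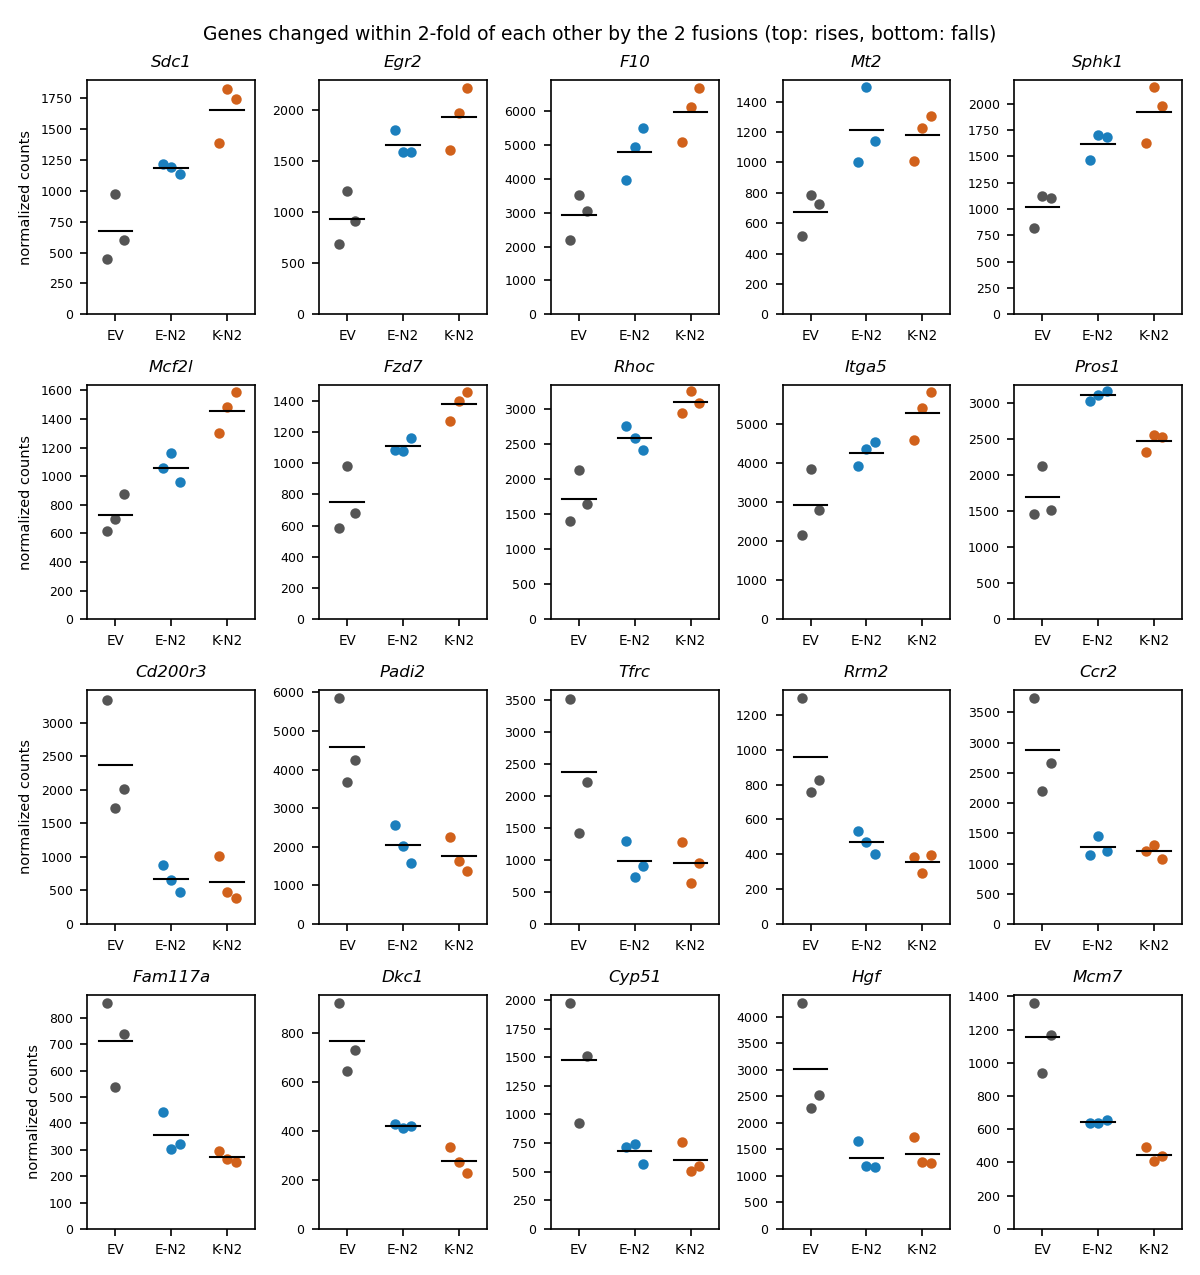
Normalized counts in each library for the 10 largest rises (upper rows) and 10 largest falls (lower rows) that met the rule for fusions within 2-fold. EV is empty vector, E-N2 is ETV6-NCOA2, K-N2 is KAT6A-NCOA2, points are the 3 libraries of a group and the line is their mean. In every panel the 6 fusion points lie on one side of the 3 empty vector points, most closely in Tfrc and Itga5.

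Further genes, several of them at a lower level, had a pooled change of at least 2-fold with the fusions within 2-fold of each other. The following were chosen after their values were seen, from those 19 higher and 66 lower genes. Trnp1 fell the most of these and stood at normalized counts of 491, 265 and 549.6 under empty vector, 60.6, 37.3 and 31.9 under ETV6-NCOA2 and 32.6, 36.8 and 35.1 under KAT6A-NCOA2 (log2 change -3.41 ± 0.25 SE, adjusted p = 0.00015). Calca, which encodes calcitonin and the peptide CGRP, stood at normalized counts of 629, 669.6 and 518 under empty vector, 161, 193 and 80.2 under ETV6-NCOA2 and 217, 167 and 122 under KAT6A-NCOA2, and Ramp3, a partner of the receptor family for such peptides, at normalized counts of 269, 302 and 207 under empty vector, 75.2, 90.9 and 54.5 under ETV6-NCOA2 and 110.01, 81 and 43.2 under KAT6A-NCOA2. Their log2 changes were -2.01 ± 0.26 SE, adjusted p = 0.0014 and -1.81 ± 0.27 SE, adjusted p = 0.0023. Penk, which encodes the enkephalin precursor, changed by -1.88, and Igfbp7, a secreted binding protein, by -2.46 (adjusted p = 0.00069 and 0.0016).

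Among transcription and survival factors in that set, Ets1, a lymphoid member of the ETS family (chromosome 9, 32636221 to 32757820), stood at normalized counts of 1046, 391 and 682 under empty vector, 231, 189 and 179.9 under ETV6-NCOA2 and 280.1, 221 and 214 under KAT6A-NCOA2 (log2 change -1.59 ± 0.24 SE, adjusted p = 0.0027). Hoxa9, a homeobox gene of progenitors, stood at normalized counts of 164, 124 and 178 under empty vector, 77.3, 70.8 and 54.5 under ETV6-NCOA2 and 68.2, 66.2 and 31.6 under KAT6A-NCOA2 (log2 change -1.36 ± 0.24 SE, adjusted p = 0.0049). Bcl2, which protects cells from apoptosis, stood at normalized counts of 961, 753 and 853 under empty vector, 535, 495 and 434 under ETV6-NCOA2 and 384, 362 and 354 under KAT6A-NCOA2, with a log2 change of -1.01 ± 0.091 SE, adjusted p = 0.00034. The intervals of the difference between the fusions were -0.87 to 0.37 for Ets1, -0.28 to 0.97 for Hoxa9 and 0.18 to 0.64 for Bcl2. Among the rises, Hbegf, a ligand of the EGF receptor, stood at normalized counts of 46.8, 94.9 and 62.2 under empty vector, 163, 117 and 171 under ETV6-NCOA2 and 122, 199 and 191 under KAT6A-NCOA2, with a log2 change of 1.26 ± 0.23 SE, adjusted p = 0.0057. Cd200, a surface protein that restrains myeloid cells, stood at normalized counts of 98.5, 221 and 137 under empty vector, 405, 278 and 251 under ETV6-NCOA2 and 329, 427 and 381 under KAT6A-NCOA2, with a log2 change of 1.23 ± 0.23 SE, adjusted p = 0.0057. Il1r2, the decoy receptor for interleukin 1, changed by 1.18, and Flt1, a VEGF receptor of monocytes, by 1.08 (adjusted p = 0.02 and 0.0082). The calls of all these genes held whichever library was left out. By limma against empty vector alone, ETV6-NCOA2 missed an adjusted p of 0.05 for Hoxa9 (0.052), Cd200 (0.059), Il1r2 (0.072) and Flt1 (0.068). KAT6A-NCOA2 passed for these genes.

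The blood lineages were then read from lists of marker genes, each set beside the 8.72% of all genes called higher, the 11.1% called lower and the median of 0.014. Of 27 mast cell and basophil genes tested, 18 fell and Mitf rose, with a median log2 change of -1.29, and the falls numbered between 13 and 19 when any 1 library was left out. Mitf lost its call in 6 of those 9 fits. The list summed to between 126000 and 198800 normalized counts with empty vector and between 56590 and 95000 with a fusion. Prss34, a protease of basophils (chromosome 17, 25298394 to 25300165), stood at normalized counts of 11088, 2927 and 5089 under empty vector, 718, 259 and 263 under ETV6-NCOA2 and 452, 289 and 167 under KAT6A-NCOA2. The lowest empty vector value was several times the highest fusion value, and the log2 change was -4.10 ± 0.45 SE, adjusted p = 0.00077. Mcpt8, another basophil protease (chromosome 14, 56082166 to 56085273), stood at normalized counts of 8387, 3257 and 4846 under empty vector, 1236, 530.1 and 293 under ETV6-NCOA2 and 900.4, 391 and 257 under KAT6A-NCOA2 (log2 change -3.32 ± 0.48 SE, adjusted p = 0.0021). The genes of the IgE receptor fell too: Fcer1a, its alpha chain, changed by -2.29 ± 0.33 SE, adjusted p = 0.002 and Ms4a2, its beta chain, by -2.17 ± 0.30 SE, adjusted p = 0.0018. Only Cd200r3 of the list met the rule for fusions within 2-fold. Of the called members 5 were also called different between the fusions, against 10.1% of all called genes. The list's own medians were -1.06 with ETV6-NCOA2 and -1.99 with KAT6A-NCOA2. Intervals of the difference reached 1.548 for Prss34 and 1.5857 for Mcpt8, so that for these genes these libraries cannot say whether the fusions were within 2-fold.

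Of 7 eosinophil genes tested, Epx, Prg2, Prg3 and Cebpe fell and Siglecf rose, with a median log2 change of -2.52. The list summed to between 1113 and 2119 normalized counts with empty vector and between 1010 and 1678 with a fusion, with overlap. Prg2, a major basic protein of eosinophil granules (chromosome 2, 84980461 to 84983632), stood at normalized counts of 235, 145 and 115 under empty vector, 8.36, 11.5 and 4.11 under ETV6-NCOA2 and 6.11, 14.7 and 5.84 under KAT6A-NCOA2 (log2 change -4.18 ± 0.37 SE, adjusted p = 0.00034). Epx, the eosinophil peroxidase, was at 0 or under 2 normalized counts in all fusion libraries and at 59.3, 16.5 and 31.1 with empty vector (adjusted p = 0.0012). Siglecf, a sialic acid receptor of eosinophils and some macrophages, moved the other way, with a log2 change of 0.62 ± 0.11 SE, adjusted p = 0.004. Each of these calls held whichever library was left out, and with a filter of 50, which fewer members pass, 2 fell.

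Of 16 erythroid genes tested, 9 fell, with a median log2 change of -0.656, and between 7 and 10 fell with any 1 library left out. The list summed to between 7837 and 12070 normalized counts with empty vector and between 6081 and 8831 with a fusion, with overlap. Car1, carbonic anhydrase 1 (chromosome 3, 14766216 to 14808368), stood at normalized counts of 428, 306 and 709 under empty vector, 27.2, 17.2 and 11.3 under ETV6-NCOA2 and 42.8, 52.6 and 40.9 under KAT6A-NCOA2 (log2 change -3.96 ± 0.29 SE, adjusted p = 0.00015). Rhag, a membrane protein of red cells (chromosome 17, 40811126 to 40840754), stood at normalized counts of 161, 165 and 259 under empty vector, 69, 57.4 and 42.2 under ETV6-NCOA2 and 15.3, 10.5 and 14 under KAT6A-NCOA2, with a log2 change of -2.76 ± 0.22 SE, adjusted p = 0.00015. Klf1, the master factor of red cell genes (chromosome 8, 84901928 to 84905291), stood at normalized counts of 109.9, 54 and 121 under empty vector, 43.9, 34.5 and 28.8 under ETV6-NCOA2 and 13.2, 7.36 and 12.9 under KAT6A-NCOA2, with a log2 change of -2.13 ± 0.29 SE, adjusted p = 0.0018. Car1 stood lower with ETV6-NCOA2 in these libraries, though its difference of -1.32 missed the test (adjusted p = 0.062), while Rhag and Klf1 fell further with KAT6A-NCOA2 (differences of 1.99 and 1.61, adjusted p = 0.0026 and 0.028). Of 16 megakaryocyte and platelet genes, Vwf (0.48) and Slc35d3 (0.58) rose, and 0 rose when the fusions were fitted as 1 group. The rises numbered 1 without empty vector replicate 1, 6 without ETV6-NCOA2 replicate 3 and 4 by DESeq2.

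Of 18 neutrophil granule genes tested, 10 fell and Mmp8 and Ltb4r1 rose. The list summed to between 224400 and 285800 normalized counts with empty vector and between 193300 and 284600 with a fusion, with overlap. Of its members 0 met the rule for fusions within 2-fold. Of those called 7 were also called different between the fusions, against 10.1% of all called genes. The list had a median log2 change of -1.6, made of -0.534 for ETV6-NCOA2 and -2.96 for KAT6A-NCOA2. Its falls numbered 5 without empty vector replicate 1 and 4 with the fusions fitted as 1 group. The rises numbered 0 when 1 of empty vector replicates 1 and 3, ETV6-NCOA2 replicates 2 and 3 and KAT6A-NCOA2 replicates 2 and 3 was left out. Mpo, the myeloperoxidase of primary granules (chromosome 11, 87793581 to 87804413), stood at normalized counts of 10077, 7575 and 8907 under empty vector, 2962, 3305 and 2490.3 under ETV6-NCOA2 and 791, 498 and 463 under KAT6A-NCOA2. The 3 groups did not overlap at all, and the pooled log2 change was -2.78 ± 0.16 SE, adjusted p = 3.8e-05. Own changes were -1.60 with ETV6-NCOA2 and -3.95 with KAT6A-NCOA2.

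Of 25 stem and progenitor genes tested, 10 fell and Lmo2 and Spi1 rose, with a median log2 change of -0.468. The list summed to between 31730 and 40340 normalized counts with empty vector and between 23140 and 34020 with a fusion, with overlap. The falls numbered between 9 and 12 with any 1 library left out, while the rises numbered 0 without empty vector replicate 1, 4 without empty vector replicate 2 and 1 or 2 in the other 7 fits, and 0 with the fusions as 1 group. Kit, the receptor of SCF and thus of a cytokine in the medium (chromosome 5, 75574916 to 75656722), stood at normalized counts of 3786, 2647 and 2912 under empty vector, 1342, 1259 and 1089.9 under ETV6-NCOA2 and 1000.2, 591 and 617 under KAT6A-NCOA2 (log2 change -1.72 ± 0.17 SE, adjusted p = 0.00048). Myb, a factor that keeps progenitors dividing (chromosome 10, 21124935 to 21160984), stood at normalized counts of 1418, 1020.5 and 1546 under empty vector, 561, 606 and 558 under ETV6-NCOA2 and 162, 162 and 137 under KAT6A-NCOA2, with a log2 change of -2.14 ± 0.12 SE, adjusted p = 3.8e-05. Mecom, a stem cell factor, changed by -2.16 ± 0.39 SE, adjusted p = 0.0053, and Gfi1, a repressor that granulocytes need, by -1.65 ± 0.23 SE, adjusted p = 0.0018. The Gfi1 call was lost when the fusions were fitted as 1 group. Spi1, which encodes the myeloid factor PU.1, stood at normalized counts of 5691, 6078 and 5246 under empty vector, 6529, 5892 and 6419 under ETV6-NCOA2 and 6800.03, 6710.1 and 7217 under KAT6A-NCOA2, and its log2 change of 0.22 ± 0.068 SE, adjusted p = 0.047 lost its call in 7 of the 9 fits without 1 library.

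**Figure D4:**
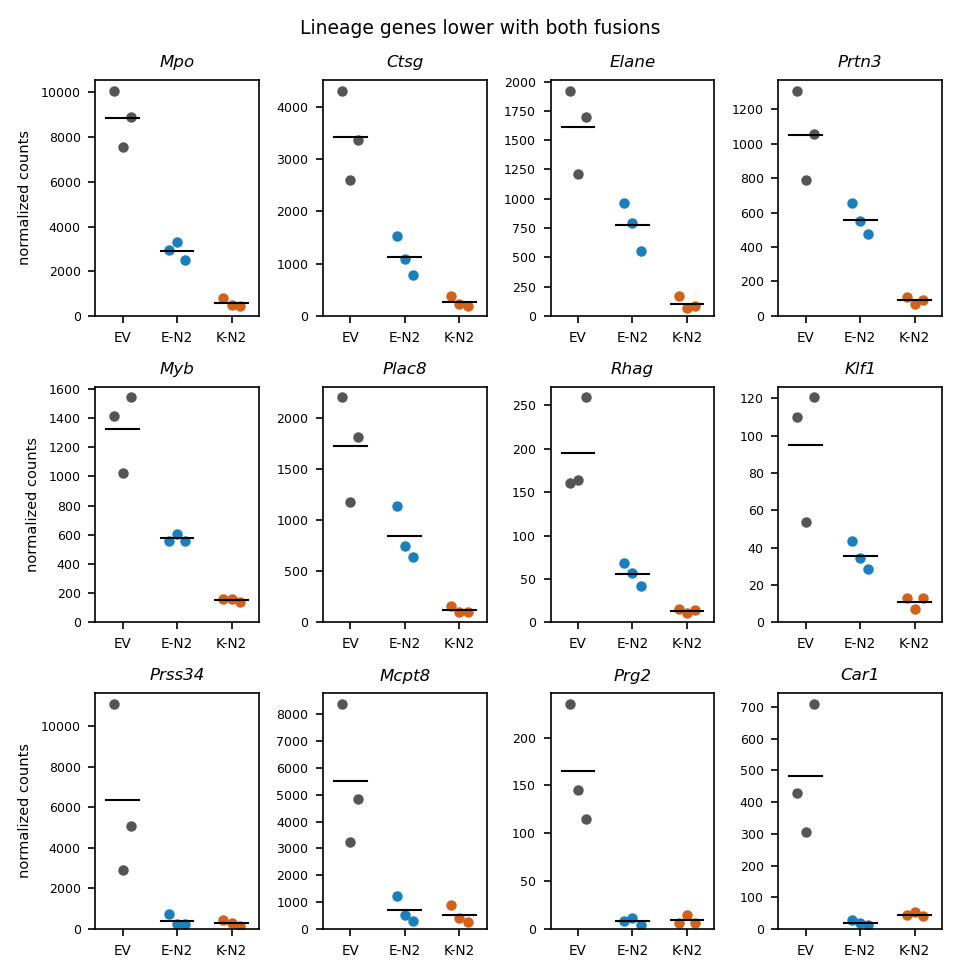
Normalized counts in each library of granule and progenitor genes (Mpo, Ctsg, Elane, Prtn3, Myb, Plac8), erythroid genes (Rhag, Klf1, Car1), basophil genes (Prss34, Mcpt8) and the eosinophil gene Prg2; EV is empty vector, E-N2 is ETV6-NCOA2, K-N2 is KAT6A-NCOA2, and lines are means of 3 libraries. All 6 fusion points lie below all 3 empty vector points in every panel. In the Mpo, Ctsg, Elane, Prtn3, Myb, Plac8, Rhag and Klf1 panels the KAT6A-NCOA2 points lie below those of ETV6-NCOA2 as well.

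Monocyte genes split. Of 12 tested, 3 fell (among them Ly6c2 and Ccr2, which mark monocytes that leave the marrow for inflamed tissue) and 5 rose, with a median log2 change of 0.336. Itgam, the integrin chain CD11b (chromosome 7, 128062640 to 128118491), stood at normalized counts of 9614, 21845 and 13305 under empty vector, 16101, 24734 and 25301 under ETV6-NCOA2 and 28375, 34344 and 36673 under KAT6A-NCOA2. Empty vector replicate 2 overlapped the ETV6-NCOA2 libraries, and the log2 change of 0.92 ± 0.24 SE, adjusted p = 0.023 was lost without empty vector replicate 1 (0.13), empty vector replicate 3 (0.085), KAT6A-NCOA2 replicate 2 (0.053) or KAT6A-NCOA2 replicate 3 (0.052), and with the fusions fitted as 1 group. Without empty vector replicate 1, empty vector replicate 3, KAT6A-NCOA2 replicate 2 or KAT6A-NCOA2 replicate 3 the rises numbered 1, 1, 2 and 3, while the 3 falls were called in each of the 9 fits without 1 library. Ly6c2 was not called with the fusions fitted as 1 group.

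Of 30 macrophage genes tested, 14 rose and 16 were not called, with a median log2 change of 0.402. Spp1, the secreted protein osteopontin (chromosome 5, 104435118 to 104441050), stood at normalized counts of 90893, 367273 and 150935 under empty vector, 230628, 499367 and 485642 under ETV6-NCOA2 and 567955, 753306 and 712820.3 under KAT6A-NCOA2. Empty vector replicate 2 lay above ETV6-NCOA2 replicate 1, and the log2 change was 1.57 ± 0.46 SE, adjusted p = 0.036. Fn1, fibronectin (chromosome 1, 71585520 to 71653200), stood at normalized counts of 2688, 10754 and 4093 under empty vector, 3409, 17528 and 18417 under ETV6-NCOA2 and 20489.7, 29869 and 34099 under KAT6A-NCOA2, with a log2 change of 1.78 ± 0.55 SE, adjusted p = 0.044. Mmp12 and Mmp13, metalloproteases that macrophages secrete, changed by 1.36 and 1.50 (adjusted p = 0.042 and 0.028). The Spp1 call was lost without ETV6-NCOA2 replicate 2 (0.065), ETV6-NCOA2 replicate 3 (0.077), empty vector replicate 1 (0.21), empty vector replicate 3 (0.12), KAT6A-NCOA2 replicate 2 (0.078) or KAT6A-NCOA2 replicate 3 (0.074). The Fn1 call was lost without ETV6-NCOA2 replicate 2 (0.084), ETV6-NCOA2 replicate 3 (0.084), empty vector replicate 1 (0.22), empty vector replicate 3 (0.14), KAT6A-NCOA2 replicate 2 (0.087) or KAT6A-NCOA2 replicate 3 (0.09). Mmp12 lost its call in 7 such fits and Mmp13 in 6, and edgeR did not call Fn1, Mmp12 or Mmp13. Without empty vector replicates 1 and 3, ETV6-NCOA2 replicates 2 and 3 and KAT6A-NCOA2 replicates 2 and 3, each left out alone, the rises of the list numbered 3, 4, 7, 8, 5 and 6, and with the fusions as 1 group 7. The list summed to between 1105000 and 1794000 normalized counts with empty vector and between 1692000 and 2711000 with a fusion, with overlap. Itgax, the integrin chain CD11c of dendritic cells and tissue macrophages, kept its call in every fit without 1 library and stood at normalized counts of 4116, 10131 and 6644 under empty vector, 9694, 12787 and 13632 under ETV6-NCOA2 and 14148, 18889 and 20503 under KAT6A-NCOA2 (log2 change 1.15 ± 0.24 SE, adjusted p = 0.0095), with empty vector replicate 2 above ETV6-NCOA2 replicate 1.

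Of 20 genes of dendritic cells and antigen presentation, 7 rose, among them 5 of class II presentation, and 2 fell, with a median log2 change of 0.464. H2-Aa, a class II chain, changed by 0.65 ± 0.18 SE, adjusted p = 0.032. The rises numbered 0, 1, 3, 3, 3 and 4 without empty vector replicate 1, empty vector replicate 3, ETV6-NCOA2 replicate 2, ETV6-NCOA2 replicate 3, KAT6A-NCOA2 replicate 2 and KAT6A-NCOA2 replicate 3. The H2-Aa call was lost in each of those 6 fits. Ccl17, a chemokine of dendritic cells, fell by 1.57 and Clec10a, a lectin, by 0.68 (adjusted p = 0.031 and 0.032). The Ccl17 call was lost without empty vector replicate 1 (0.14), empty vector replicate 3 (0.097), KAT6A-NCOA2 replicate 2 (0.065) or KAT6A-NCOA2 replicate 3 (0.06), and the Clec10a call without ETV6-NCOA2 replicate 2 (0.065), empty vector replicate 1 (0.11), empty vector replicate 3 (0.14), KAT6A-NCOA2 replicate 1 (0.052) or KAT6A-NCOA2 replicate 2 (0.073).

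Markers of cells that the sort could also hold were few and mostly low. Of 17 T cell genes 6 were tested and Thy1 fell. The list summed to between 971.7 and 1419 normalized counts with empty vector and between 437.3 and 600.0 with a fusion, and Thy1 made up most of it in empty vector replicates 1 and 3. Cd3d, Cd247, Cd8a and Trac were not among the 17266 genes with values, and Cd3g, at most 11.49, missed the filter. Thy1, a surface protein of T cells that other marrow cells also carry (chromosome 9, 44043384 to 44048579), stood at normalized counts of 1009, 403 and 807 under empty vector, 205, 65.1 and 45.2 under ETV6-NCOA2 and 135, 57.8 and 52.6 under KAT6A-NCOA2 (log2 change -3.10 ± 0.47 SE, adjusted p = 0.0025). Of 14 B cell genes 6 were tested, and Blnk rose by 0.52 (adjusted p = 0.046, lost in 7 of the 9 fits without 1 library, by edgeR and with the fusions as 1 group). The sum of the B cell list was 1064 to 1395 with empty vector and 1193 to 1685 with a fusion, while Ms4a1 and Rag1 had no values. Of 12 NK and innate lymphoid genes 4 were tested: Gzmb fell and Klrb1c rose. Gzmb, granzyme B (chromosome 14, 56258838 to 56262260), stood at normalized counts of 10171, 4716 and 10488 under empty vector, 2718, 1083 and 909.97 under ETV6-NCOA2 and 1026, 599 and 699 under KAT6A-NCOA2 (log2 change -2.96 ± 0.35 SE, adjusted p = 0.00098), with every fusion value below every empty vector value. Klrb1c, the NK receptor NK1.1 (chromosome 6, 128778485 to 128789215), stood at normalized counts of 0.96, 9.58 and 3.55 under empty vector, 87.8, 73.7 and 94.6 under ETV6-NCOA2 and 4.07, 6.31 and 4.67 under KAT6A-NCOA2, so that its pooled change came from ETV6-NCOA2 (own changes 4.24 and 0.39), and its call was lost with the fusions as 1 group. The NK list summed to between 4768 and 10530 with empty vector and between 636 and 2853 with a fusion, most of it Gzmb. Prf1, Klrk1 and Il2rb stayed below 10 normalized counts in every library. Ncr1, Klrd1 and Gzma were not among the 17266 genes with values. The sum thus reflects Gzmb and cannot stand for NK cells. Of 10 stromal and endothelial genes tested, Lepr and Kdr rose and Col1a2, Pdgfrb and Pecam1 fell, with sums of 2498 to 2795 with empty vector and 1987 to 2623 with a fusion. The rises numbered 1 with the fusions as 1 group and 1 without empty vector replicate 1 or 3, ETV6-NCOA2 replicate 2 or 3 or KAT6A-NCOA2 replicate 2 or 3. The falls numbered 1 without empty vector replicate 1. The part of these cells in the other results was not tested.

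The lists from here on also stand beside the 8.72% of all tested genes called higher and the 11.1% called lower. The genes of cell division fell together with either fusion. Of 26 DNA replication genes tested, 23 fell. In 14 of these the fusions were within 2-fold, and 9 of them were called different between the fusions, against 10.1% of all called genes. A gene can be in both classes. The median log2 change was -0.879, with -0.621 for ETV6-NCOA2 and -1.04 for KAT6A-NCOA2. All 22 mitosis genes tested fell, 13 of them with the fusions within 2-fold, and 1 was called different between the fusions. The median was -0.778, with -0.578 and -1.03 for ETV6-NCOA2 and KAT6A-NCOA2. With any 1 library left out, between 21 and 24 replication genes and between 18 and 22 mitosis genes fell. The replication list summed to between 17430 and 24880 normalized counts with empty vector and between 9221 and 13940 with a fusion, and the mitosis list to between 16690 and 26220 and between 9292 and 15160. Neither sum overlapped between empty vector and fusion libraries. Over these libraries the mast cell and basophil sum given above moved the same way, and its part in this result was not tested.

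Tyms, which makes thymidylate (chromosome 5, 30058202 to 30073617), stood at normalized counts of 605, 375 and 442 under empty vector, 228, 262 and 252 under ETV6-NCOA2 and 177, 144 and 127 under KAT6A-NCOA2, with a log2 change of -1.28 ± 0.15 SE, adjusted p = 0.00092. Cdc6, which loads the helicase on origins (chromosome 11, 98907801 to 98923940), stood at normalized counts of 300.1, 212 and 243 under empty vector, 152, 129 and 113 under ETV6-NCOA2 and 84.5, 86.2 and 87.7 under KAT6A-NCOA2, with a log2 change of -1.23 ± 0.13 SE, adjusted p = 0.00069. Uhrf1, which helps copy DNA methylation (chromosome 17, 56303321 to 56323486), stood at normalized counts of 737, 447 and 549.6 under empty vector, 376, 330.1 and 312 under ETV6-NCOA2 and 232, 158 and 159 under KAT6A-NCOA2, with a log2 change of -1.19 ± 0.17 SE, adjusted p = 0.0018. The fusion values of all of them lay below the empty vector values. Of the mitosis genes, Mybl2, a factor that turns on mitotic genes (chromosome 2, 163054687 to 163084688), changed by -1.43 ± 0.24 SE, adjusted p = 0.0037. Plk1, a mitotic kinase (chromosome 7, 122159439 to 122169873), changed by -1.05 ± 0.18 SE, adjusted p = 0.0042, Aurkb, another (chromosome 11, 69045647 to 69051664), by -1.01 ± 0.17 SE, adjusted p = 0.0035, and Ccnb1, cyclin B1 (chromosome 13, 100778650 to 100786570), by -0.97 ± 0.13 SE, adjusted p = 0.0018. Mki67, the proliferation marker Ki-67, stood at normalized counts of 5843, 3347 and 4596 under empty vector, 3065, 3036 and 2778 under ETV6-NCOA2 and 2225, 1930.1 and 1855 under KAT6A-NCOA2, with a log2 change of -0.88 ± 0.14 SE, adjusted p = 0.0031.

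Upstream of replication, 5 of 20 G1 control genes fell and Btg2 rose, with a median of 0.0305. Myc, a growth factor-driven transcription factor (chromosome 15, 61985391 to 61990374), stood at normalized counts of 1619, 1359 and 1560.1 under empty vector, 1049, 1186 and 1201 under ETV6-NCOA2 and 817, 931 and 941 under KAT6A-NCOA2, with a log2 change of -0.58 ± 0.078 SE, adjusted p = 0.0017. Ccnd2, cyclin D2 (chromosome 6, 127125162 to 127152193), stood at normalized counts of 2523, 1711 and 1724 under empty vector, 1419, 1379 and 1319 under ETV6-NCOA2 and 998, 715 and 622 under KAT6A-NCOA2, with a log2 change of -0.93 ± 0.15 SE, adjusted p = 0.0035 that was not called with the fusions fitted as 1 group. E2f2, which activates S phase genes (chromosome 4, 136172394 to 136196057), stood at normalized counts of 484, 248 and 303 under empty vector, 189, 195 and 203 under ETV6-NCOA2 and 184, 162 and 144 under KAT6A-NCOA2, with a log2 change of -0.89 ± 0.18 SE, adjusted p = 0.0076.

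Genes of ribosome biogenesis were a little lower: 17 of 22 fell, 14 of them with the fusions within 2-fold, and the median log2 change was -0.376. The falls numbered 7 without empty vector replicate 1, 10 without empty vector replicate 3 and 11 with the fusions as 1 group. Npm1, nucleophosmin (chromosome 11, 33152287 to 33163206), stood at normalized counts of 4346, 3992 and 4061 under empty vector, 3315, 3331 and 3161 under ETV6-NCOA2 and 2675, 2682 and 2547 under KAT6A-NCOA2, with a log2 change of -0.49 ± 0.054 SE, adjusted p = 0.00074. The changes were small and the groups did not overlap in Npm1. Nop58, of the complex that methylates ribosomal RNA, changed by -0.64 ± 0.085 SE, adjusted p = 0.0016, and Nolc1, a nucleolar phosphoprotein, by -0.59 ± 0.083 SE, adjusted p = 0.0019.

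Of 24 genes of cholesterol synthesis and its control, 17 fell, 10 of them with the fusions within 2-fold, and Dhcr7 rose. The median log2 change was -0.592, and the fusions' own medians were -0.61 for ETV6-NCOA2 and -0.619 for KAT6A-NCOA2. Lss, lanosterol synthase (chromosome 10, 76531588 to 76557138), stood at normalized counts of 1272, 556 and 1135 under empty vector, 487, 517 and 473 under ETV6-NCOA2 and 458, 396 and 415 under KAT6A-NCOA2, with a log2 change of -1.03 ± 0.21 SE, adjusted p = 0.0087. Empty vector replicate 2 was the lowest of its group and still lay above the fusion libraries. Dhcr7, the last enzyme of the path, stood at normalized counts of 1840.04, 1969 and 1764 under empty vector, 2573, 2064 and 1854 under ETV6-NCOA2 and 2801, 2744 and 2977 under KAT6A-NCOA2 (log2 change 0.41 ± 0.092 SE, adjusted p = 0.013), with overlap in ETV6-NCOA2 libraries, and lost its call in 2 of the 9 fits without 1 library. The falls numbered 5 without empty vector replicate 1, 5 without empty vector replicate 3 and 22 without empty vector replicate 2. Of 14 genes of cholesterol efflux, Abca1, Abcg1 and Soat1 rose: Abca1, the exporter that loads HDL (chromosome 4, 53030787 to 53159895), stood at normalized counts of 6729, 8129.9 and 5487 under empty vector, 8339, 8969 and 10539 under ETV6-NCOA2 and 10771, 10074 and 10405 under KAT6A-NCOA2, with a log2 change of 0.55 ± 0.12 SE, adjusted p = 0.01 that held whichever library was left out. Abcg1 and Soat1 lost their calls without any 1 of 6 libraries, so that 1 gene of the list rose without empty vector replicate 1 or 3, ETV6-NCOA2 replicate 1 or 3, or KAT6A-NCOA2 replicate 2 or 3.

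**Figure D5:**
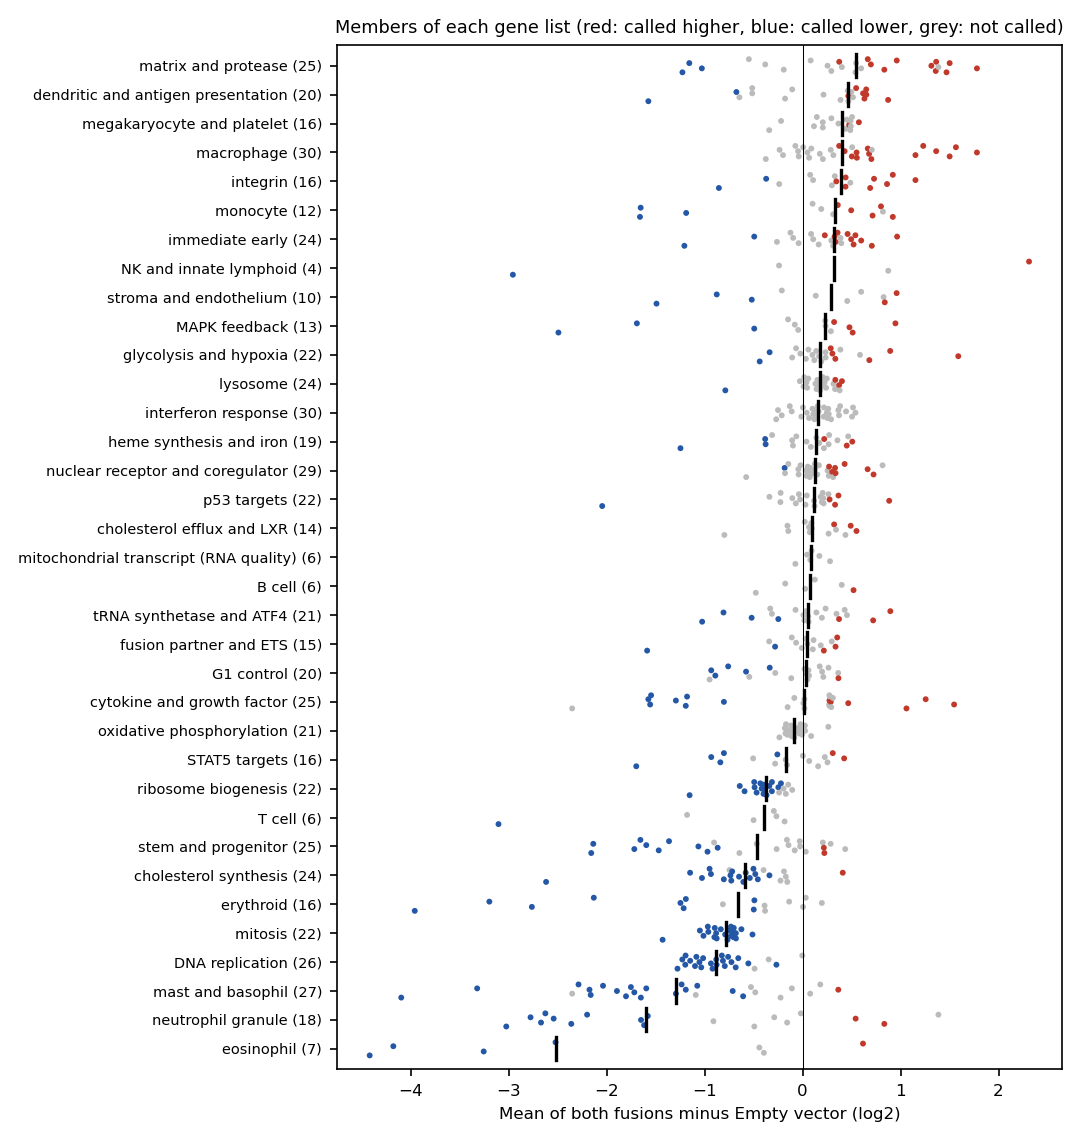
Each row is a gene list with the number of members tested, each point a member at its pooled log2 change (mean of both fusions minus empty vector), coloured red where called higher, blue where called lower and grey where not called, and the bar is the list's median. Medians run from -2.52 for eosinophil genes to 0.547 for matrix and protease genes, and the mitosis row is blue throughout.

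Of 24 immediate early genes, which answer growth and stress signals within minutes, 11 rose, 6 of them with the fusions within 2-fold, and Fosl1 and Ier3 fell, with a median log2 change of 0.32. Their sum was 49620 to 56180 normalized counts with empty vector and 63270 to 79910 with a fusion, without overlap. Jun, a subunit of AP-1, stood at normalized counts of 4407, 5765 and 4718 under empty vector, 6469, 6562 and 6556 under ETV6-NCOA2 and 6863, 6803 and 7479.97 under KAT6A-NCOA2, with a log2 change of 0.46 ± 0.084 SE, adjusted p = 0.0053. Atf3, a stress-induced factor (chromosome 1, 191170296 to 191218039), stood at normalized counts of 2353, 3819.9 and 2511 under empty vector, 4475, 3797 and 4044 under ETV6-NCOA2 and 4819, 5316 and 5485 under KAT6A-NCOA2, with a log2 change of 0.71 ± 0.13 SE, adjusted p = 0.0063 and an overlap of empty vector replicate 2 with ETV6-NCOA2 replicate 2. Dusp1, a phosphatase of MAP kinases, changed by 0.60 ± 0.13 SE, adjusted p = 0.011, a call lost without empty vector replicate 1 (0.062). The rises numbered 4 without empty vector replicate 1 and 7 without empty vector replicate 3. The falls numbered 0 without ETV6-NCOA2 replicate 3, empty vector replicate 1 or 3 or KAT6A-NCOA2 replicate 2, and 1 without ETV6-NCOA2 replicate 2 or KAT6A-NCOA2 replicate 3. Fosl1 fell by 1.21 (adjusted p = 0.034), a call lost without ETV6-NCOA2 replicate 3 (0.067), empty vector replicate 1 (0.16), empty vector replicate 3 (0.14) or KAT6A-NCOA2 replicate 2 (0.07), and with the fusions as 1 group, where the falls numbered 0.

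Of 13 genes of MAP kinase feedback, 4 rose and 3 fell. Etv4 (chromosome 11, 101769742 to 101785371), an ETS factor downstream of the pathway, stood at normalized counts of 97.5, 35.7 and 80.8 under empty vector, 11.5, 14.3 and 22.6 under ETV6-NCOA2 and 9.17, 4.21 and 10.5 under KAT6A-NCOA2, with a log2 change of -2.49 ± 0.38 SE, adjusted p = 0.0025, and Spry4, an inhibitor, changed by -1.69 ± 0.27 SE, adjusted p = 0.0029. Neither gene had an overlap between empty vector and fusion libraries. Phlda1 rose with 1.40 and 0.49 as own changes (pooled adjusted p = 0.0039), and was not called with the fusions as 1 group. The rises numbered 1, 1, 2 and 2 without empty vector replicate 1, empty vector replicate 3, ETV6-NCOA2 replicate 2 and KAT6A-NCOA2 replicate 2, and 1 with the fusions as 1 group. With a filter of 50, which fewer members pass, 1 fell.

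Of 16 targets of STAT5, which IL-3 activates, 5 fell (Cish, Socs1, Osm, Il2ra and Ccnd2) and Socs3 and Mcl1 rose. Il2ra, the alpha chain of the IL-2 receptor (chromosome 2, 11642807 to 11693193), stood at normalized counts of 5475, 2212 and 3192 under empty vector, 2316, 1463 and 1123 under ETV6-NCOA2 and 978, 641 and 536 under KAT6A-NCOA2, with a log2 change of -1.70 ± 0.30 SE, adjusted p = 0.0044. Socs1, a feedback inhibitor of cytokine signals (chromosome 16, 10782240 to 10785536), stood at normalized counts of 942, 579 and 718 under empty vector, 605, 484 and 386 under ETV6-NCOA2 and 353, 336 and 347 under KAT6A-NCOA2, with a log2 change of -0.84 ± 0.16 SE, adjusted p = 0.0059. In both genes ETV6-NCOA2 replicate 1 lay above empty vector replicate 2. The falls numbered 3 without 1 of empty vector replicates 1 and 3, ETV6-NCOA2 replicates 2 and 3 and KAT6A-NCOA2 replicate 2. With the fusions as 1 group they numbered 2. The rises numbered 0 without empty vector replicate 1 and 1 without any 1 of empty vector replicate 3, ETV6-NCOA2 replicates 1 and 3 and KAT6A-NCOA2 replicates 2 and 3.

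Of 25 cytokine and growth factor genes, 6 rose and 7 fell, with a median of 0.0193. Il1rn, the antagonist of the interleukin 1 receptor (chromosome 2, 24336853 to 24351494), stood at normalized counts of 928, 2899 and 1426 under empty vector, 4341, 4018 and 3806 under ETV6-NCOA2 and 4432, 5645 and 5528 under KAT6A-NCOA2. All fusion values lay above all empty vector values, the highest of which came from replicate 2, and the log2 change was 1.55 ± 0.27 SE, adjusted p = 0.0041. The falls were Il4, Il6, Il10, Lif, Osm, Ccl17 and Cxcl3. They numbered 1, 1, 3, 3, 2 and 2 without empty vector replicates 1 and 3, ETV6-NCOA2 replicates 2 and 3 and KAT6A-NCOA2 replicates 2 and 3, each left out alone, 3 with the fusions as 1 group and 3 with a filter of 50. The rises numbered 3 without empty vector replicate 1 and 3 without empty vector replicate 3.

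Interferon response genes were not moved in common. Of 30 tested, limma called 0 and gave 5 an unadjusted p under 0.05, while 1 was called with DESeq2 and 0 with edgeR. The list's own medians were 0.828 with ETV6-NCOA2 and -0.474 with KAT6A-NCOA2. Without empty vector replicate 2 limma called 6. Of 21 genes of oxidative phosphorylation, limma called 0 and gave 5 an unadjusted p under 0.05, while 1 was called with DESeq2 and 0 with edgeR. The median log2 change was -0.0842, and without ETV6-NCOA2 replicate 1 limma called 4 lower.

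In the lists of matrix, protease and adhesion genes more members rose than fell, and Fn1, Mmp12, Mmp13 and Ctsk, counted here, were counted among the macrophage genes as well. Of 25 matrix and protease genes, 11 rose and 3 fell, with a median log2 change of 0.547, the highest of the lists. The rises numbered 2, 3, 5, 5, 5 and 5 without empty vector replicates 1 and 3, ETV6-NCOA2 replicates 2 and 3 and KAT6A-NCOA2 replicates 2 and 3, each left out alone, 7 by edgeR and 4 with the fusions as 1 group. The falls numbered 5 without empty vector replicate 2 and 1 without empty vector replicate 3. Of 16 integrin genes, 8 rose and Itga4 and Itgal fell, with a median of 0.392. Itga4, a chain of the VCAM1 receptor that holds progenitors in marrow (chromosome 2, 79255426 to 79333123), stood at normalized counts of 1519, 1354 and 1605 under empty vector, 972, 926 and 937 under ETV6-NCOA2 and 726, 754 and 676 under KAT6A-NCOA2, with a log2 change of -0.85 ± 0.066 SE, adjusted p = 0.00015. It thus fell while Itga5, which also binds fibronectin, rose. The integrin rises numbered 3, 3, 5 and 5 without empty vector replicate 1, empty vector replicate 3, KAT6A-NCOA2 replicate 2 and KAT6A-NCOA2 replicate 3, and 4 with the fusions as 1 group. The integrin falls numbered 1 without empty vector replicate 1.

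Where the fusions differed in size, KAT6A-NCOA2 was usually the further from empty vector. Its mean lay beyond that of ETV6-NCOA2 in 1022 of the 1199 higher genes (85.2%, against 70.4% of all tested genes with a positive pooled change) and in 1370 of the 1523 lower genes (90.0%, against 69.3%). The called lower genes had medians of -0.404 with ETV6-NCOA2 and -0.779 with KAT6A-NCOA2, and the called higher genes medians of 0.332 and 0.523. Of the 275 genes called different between the fusions as well as in the pooled comparison, 231 were lower, and 230 of these were lower still with KAT6A-NCOA2. The exception was Car2, carbonic anhydrase 2, at normalized counts of 1641, 1620.4 and 1896 under empty vector, 1098, 1156 and 986 under ETV6-NCOA2 and 1390.4, 1433 and 1317 under KAT6A-NCOA2. The 44 higher genes divided into 21 with the larger rise under ETV6-NCOA2 and 23 under KAT6A-NCOA2. Fusion libraries with the same replicate number deviated together, and blocking on the replicate numbers gave 719 genes called different in both comparisons in place of 275. DESeq2 gave 502, and without 1 library the count ran from 90 (without ETV6-NCOA2 replicate 2) to 672 (without empty vector replicate 2). The fusion means lay on opposite sides of the empty vector mean in 18 of the lower genes, Pdgfrb among them, and in 2 of the higher genes, Klk8 and Plxnb3.

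The largest falls among genes called different between the fusions, with a level above the median gene and no overlap of fusion and empty vector libraries, were those of Mpo, Ctsg, Elane, Plac8, Prtn3 and Myb. Elane, neutrophil elastase (chromosome 10, 79886247 to 79888215), stood at normalized counts of 1921, 1211 and 1699.5 under empty vector, 966, 797 and 554 under ETV6-NCOA2 and 169, 66.2 and 81.8 under KAT6A-NCOA2, with own changes of -1.07 and -4.01. Prtn3, proteinase 3 (chromosome 10, 79874476 to 79883174), stood at normalized counts of 1308, 791 and 1057 under empty vector, 654, 549 and 475 under ETV6-NCOA2 and 107, 71.5 and 94.7 under KAT6A-NCOA2, with own changes of -0.89 and -3.51. Ctsg, cathepsin G (chromosome 14, 56099881 to 56102574), stood at normalized counts of 4309.99, 2599.98 and 3359 under empty vector, 1525, 1081 and 779 under ETV6-NCOA2 and 387, 227 and 187 under KAT6A-NCOA2, with own changes of -1.62 and -3.71. Each step from empty vector to ETV6-NCOA2 to KAT6A-NCOA2 was free of overlap. Plac8 (chromosome 5, 100553725 to 100572245) stood at normalized counts of 2200.4, 1172 and 1808 under empty vector, 1135, 747 and 639.5 under ETV6-NCOA2 and 162, 104 and 106 under KAT6A-NCOA2, with own changes of -1.03 and -3.77. The pooled adjusted p was 3.8e-05 for Mpo, 0.00044 for Ctsg, 0.00074 for Elane, 0.00044 for Plac8, 0.00015 for Prtn3 and 3.8e-05 for Myb. Elane, Plac8 and Prtn3 were not called with the fusions fitted as 1 group.

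The largest rises by the same limits were smaller. Slc44a1, a choline transporter (chromosome 4, 53440413 to 53622478), stood at normalized counts of 895, 944 and 919 under empty vector, 1093, 1195 and 1034 under ETV6-NCOA2 and 1693, 1482 and 1435 under KAT6A-NCOA2, with own changes of 0.27 and 0.74. Abcc5, an exporter of cyclic nucleotides, had own changes of 0.32 and 0.60, Gas2l1, which links actin and microtubules, of 0.24 and 0.64, Ubash3b, a phosphatase, of 0.27 and 0.57, and Inf2, a formin, of 0.27 and 0.58. Btg2, a gene that slows division, went the other way and stood at normalized counts of 787, 709 and 785 under empty vector, 1143, 1178 and 1041 under ETV6-NCOA2 and 877, 850.5 and 843 under KAT6A-NCOA2, with own changes of 0.56 and 0.17. Its pooled call (adjusted p = 0.0038) was lost with the fusions as 1 group.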

How the data were processed

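RNA from the 9 libraries was compared as deposited. The authors' values are normalized counts, a signal scaled by 1 factor per library. Per the submitters' processing notes, STAR 2.4.2a, HTSeq, cutadapt, DESeq2 and the build GRCm38 were used, with no order given. In each library every deposited value was a whole multiple of 1 number within 0.01, so reads could be recovered (17.1 to 20.4 M per library, 100.0% of values whole). No gene has a maximum below 5.22, and the rule behind that is not given in the sources used here. At 100 reads counting error gives an interval of about 19.6% either way, and it covers counting error only.

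limma 3.58.1 (R 4.3.3) was fitted with a trend on log2(value + 1), with 1 coefficient per group. Adjusted p-values are Benjamini-Hochberg over all 13750 genes, with calls below 0.05. Alternatives were DESeq2 1.42.0 and edgeR 4.0.16 on the recovered reads, TMM scaling, pseudocounts of 0.1 and 10, no filter, a filter of 50, the fusions as 1 group, a replicate block, a 2-fold and maximum 30 threshold that the authors' deposited sheet lists, and each library left out. The model was also run on simulated data in which both fusions had the same effect and no library stood apart. That run could not check how single libraries or replicate numbers affect the calls.

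The 35 lists hold 677 genes, of which 615 were tested and 38 are in more than 1 list. The lists, the comparison and the naming rule were chosen with earlier results of these data known. The rule names, above the median level, the 10 largest rises and falls within 2-fold and, among genes also called different between the fusions and with no overlap of fusion and vector libraries, the 6 largest rises and falls. From each list it names up to 4 called members with the largest change, and predicted or clone names are left out of the largest changes. Some of the genes chosen in this way are not reported here. Overlapping and near-identical genes may share reads, since the counting settings are not given in the sources used here. Symbols were matched to GENCODE coordinates for 13448 genes tested (97.8%).

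As a check of pairing, each library's deviation from its group mean was correlated, over genes, with that of the library of the same number. Between the fusions the correlations were 0.30, 0.20 and 0.29 for replicates 1, 2 and 3, all positive. Libraries of different numbers were not compared, so whether the numbers mark a pairing was not settled.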

Additional observations from a re-analysis of the deposited data

Results flagged for a closer look

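In 30 of the 137 genes that the report's rule names, the fusions differed from each other by a test of the difference itself. This was the limma contrast ETV6-NCOA2 minus KAT6A-NCOA2 at an adjusted p below 0.05, which 3.09% of all genes tested passed. Of the 137, 132 were called in the pooled comparison, and 10.1% of all genes called there passed this contrast. The rule picks 6 rises and 6 falls because they passed it, so their place among the 30 was fixed beforehand. Among genes lower with the fusions, the difference in log2 change was 2.94 for Elane, 2.74 for Plac8, 2.61 for Prtn3, 2.48 for Ms4a3, 2.35 for Mpo, 2.09 for Ctsg and 1.90 for Myb. It was 1.99 for Rhag and 1.61 for Klf1, both erythroid, 1.90 for the monocyte gene Ly6c2, 1.83 for Gfi1 and 2.68 for Pdgfrb. Genes of division and growth had smaller differences: 0.91 for Uhrf1, 0.85 for Ccnd2, 0.73 for Tyms, 0.53 for Mcm7, 0.45 for Nop58, 0.31 for Npm1 and 1.15 for Phgdh, the enzyme that starts serine synthesis. Itga4 differed by 0.40 and Etv6 by 0.53. In each of these genes ETV6-NCOA2 stood above KAT6A-NCOA2.

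Among genes higher with the fusions, ETV6-NCOA2 stood above KAT6A-NCOA2 by 3.85 for Klrb1c, 0.91 for Phlda1 and 0.39 for Btg2. KAT6A-NCOA2 stood above ETV6-NCOA2 in Slc44a1 (-0.47), Gas2l1 (-0.40), Inf2 (-0.30), Ubash3b (-0.30), Abcc5 (-0.28) and the platelet gene Vwf (-0.50). No cause was tested for any of them.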

How the results depend on the processing

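No gene called both with all libraries and under an alternative had opposite directions in them, and the counts moved as follows. With the fusions as 1 group 555 genes were higher and 929 lower, 1484 of the 2722, and the genes within 2-fold or called different could not be given since that fit has no difference between fusions. Requiring a 2-fold change and a maximum of 30 left 82 higher and 361 lower, 15 and 62 within 2-fold, and 112 called different. With the replicate block 719 were called different and with DESeq2 502. Without 1 library the higher genes ran from 225 to 1859, the lower from 672 to 1826, those within 2-fold from 162 to 1556 higher and from 416 to 1245 lower, and those called different from 90 to 672. DESeq2 called 1328 higher and 1663 lower and shared 2634 of the 2722 calls, and edgeR called 1056 and 1691 and shared 2568. TMM scaling gave 1151 and 1591. The replicate block gave 1619 and 1835 in the pooled comparison. For replicates 1, 2 and 3, correlations of empty vector with ETV6-NCOA2 were 0.31, 0.047 and -0.076, and with KAT6A-NCOA2 0.39, 0.17 and -0.029. With the mean of both fusions they were 0.43, 0.14 and -0.065. They were thus highest for replicate 1, and whether the numbers pair these libraries was not settled. Of the 132 named genes called, 82 kept the call whichever library was left out and 50 lost it at least once, most often without empty vector replicate 1.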

Other observations

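Other lists moved less, and their counts stand beside the 8.72% of all tested genes called higher and the 11.1% called lower. Of 22 glycolysis and hypoxia genes, 6 rose and Hk1 and Hk2 fell, with a median log2 change of 0.18. Slc2a1, the glucose transporter GLUT1, stood at normalized counts of 1757, 2434 and 1924 under empty vector, 2647, 2945 and 3136 under ETV6-NCOA2 and 3029, 3880.2 and 4013 under KAT6A-NCOA2, and its log2 change of 0.68 ± 0.12 SE, adjusted p = 0.004 held whichever library was left out. The rises numbered 1, 1, 2, 3, 2 and 2 without empty vector replicates 1 and 3, ETV6-NCOA2 replicates 2 and 3 and KAT6A-NCOA2 replicates 2 and 3, each left out alone, 10 without ETV6-NCOA2 replicate 1 and 2 with the fusions as 1 group. The falls numbered 0 without empty vector replicate 1 or 3, and 1 without any other library except empty vector replicate 2 and ETV6-NCOA2 replicate 1, and with the fusions as 1 group. Of 21 tRNA synthetase and ATF4 target genes, 3 rose and 4 fell, and without empty vector replicate 1 they numbered 1 and 2. The rises numbered 1 without empty vector replicate 3 and 8 without empty vector replicate 2. Slc7a11, the cystine importer, stood at normalized counts of 418, 665 and 542 under empty vector, 667, 775 and 660.1 under ETV6-NCOA2 and 942, 1196 and 1185 under KAT6A-NCOA2, with a log2 change of 0.72 ± 0.14 SE, adjusted p = 0.0059, while Phgdh stood at normalized counts of 421, 377 and 323 under empty vector, 277, 261 and 278 under ETV6-NCOA2 and 163, 110.4 and 101 under KAT6A-NCOA2, with a log2 change of -1.02 ± 0.15 SE, adjusted p = 0.002. Both calls were lost with the fusions as 1 group, where the falls of the list numbered 0. Of 19 genes of heme synthesis and iron, 3 rose and 3 fell, among the latter Tfrc, and of 24 lysosome genes 3 rose and Glb1 fell (log2 change -0.79 ± 0.13 SE, adjusted p = 0.0039). The heme rises numbered 0 without empty vector replicate 1 or 3 6 by DESeq2 and 1 with the fusions as 1 group, and the heme falls numbered 1 without either of those replicates. The lysosome rises numbered 0 without empty vector replicate 1 or 3, ETV6-NCOA2 replicate 3 or KAT6A-NCOA2 replicate 2 or 3, 8 without empty vector replicate 2, 7 by DESeq2, and 1 by edgeR, without KAT6A-NCOA2 replicate 1 or with the fusions as 1 group.

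Of 29 nuclear receptor and coregulator genes, the class of proteins that NCOA2 works with, 7 rose (Rarg, Ppard, Pparg, Thra, Vdr, Ncoa1 and Cyp26b1) and Rxrb fell, with a median log2 change of 0.126. Over all genes tested 8.72% were called higher and 11.1% lower, which holds for the lists below too. Rarg changed by 0.30 ± 0.062 SE, adjusted p = 0.0091, a call that held whichever library was left out. Ncoa1, a paralogue of NCOA2, changed by 0.34 ± 0.095 SE, adjusted p = 0.032, a call lost without ETV6-NCOA2 replicate 2 (0.056), ETV6-NCOA2 replicate 3 (0.065), empty vector replicate 1 (0.16), empty vector replicate 3 (0.14), KAT6A-NCOA2 replicate 2 (0.066) or KAT6A-NCOA2 replicate 3 (0.071), and with the fusions as 1 group. The rises numbered 1, 2, 3, 4, 1 and 2 without empty vector replicates 1 and 3, ETV6-NCOA2 replicates 2 and 3 and KAT6A-NCOA2 replicates 2 and 3, each left out alone, and 4 with the fusions as 1 group. The fall of Rxrb was lost in the same 6 fits and with the fusions as 1 group. Of 22 p53 targets 4 rose and Perp fell, with rises numbering 1 without empty vector replicate 1 and 2 without empty vector replicate 3 or with the fusions as 1 group. The falls numbered 0 without empty vector replicate 1 and 2 without ETV6-NCOA2 replicate 1. Of 15 genes of the fusion partners' families, Ncoa1, Ets2 and Spi1 rose and Etv6 and Ets1 fell. The falls numbered 1 without empty vector replicate 1 or 3, ETV6-NCOA2 replicate 2 or 3 or KAT6A-NCOA2 replicate 2 or 3, and with the fusions as 1 group. The 3 rises were lost without any 1 of empty vector replicates 1 and 3, ETV6-NCOA2 replicate 3 and KAT6A-NCOA2 replicates 2 and 3, and with the fusions as 1 group.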
